A study of Mus musculus with 30 samples.

Results

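Cytosolic ribosomal protein genes encode the protein part of the 80S ribosome, the machine that makes proteins in the cytosol. They were taken here as the rows whose gene name is Rpl or Rps followed by a number (with an optional closing a, l or x) or Rplp0, Rplp1 or Rplp2. This name pattern found 82 of 55401 gene rows, and 77 of them reached a mean of at least 5 CPM (counts scaled so that a library sums to 1000000) in at least 1 of 6 groups. The 77 genes kept comprise 46 of the large subunit (Rpl and Rplp) and 31 of the small subunit (Rps), and GENCODE M21 classes 75 of them as protein coding and 2 (Rpl6l and Rps4l) as pseudogenes. The rule used only names and levels, but the family was chosen with earlier results of these data known.

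The libraries were made from mouse tumours of 4T1, a mammary carcinoma line that carried green fluorescent protein here. In each of 3 populations, 5 libraries came from animals given C269, an antibody against extracellular NAMPT, and 5 from animals given a control IgG1 (CTRL). Mice were labelled wild type, and dosing was 2.5 mg/kg for C269, 2 times a week for 1 month in both treatments. The populations were tumour cells obtained by sorting (4T1) and CD4+ and CD8+ T cells obtained with magnetic beads, which gives the 6 groups 4T1 C269, 4T1 CTRL, CD4 C269, CD4 CTRL, CD8 C269 and CD8 CTRL. Whether the 5 libraries of a group stem from different animals is not labelled. All p-values therefore reflect the spread between libraries, which may be technical.

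Each library held 2005579 to 5176494 counts assigned to genes, without ribosomal RNA, and CPM divides by that total. Each library carries the number of its column, 1 to 30. T cell markers (13 of 13 genes found) summed to 5197 to 6848 CPM in CD8 C269 and 5527 to 6989 CPM in CD8 CTRL, 2630.2 to 4116 CPM in CD4 C269 and 1659 to 4308 CPM in CD4 CTRL, and 142 to 545 CPM in 4T1 C269 and 14.5 to 300.2 CPM in 4T1 CTRL. For the carcinoma label of 4T1, the 7 epithelial genes (among them Epcam and the keratins) were detected in each 4T1 and CD4 group. They summed to 5696 and 5477 CPM in libraries 9 and 10 of 4T1 C269, 394 to 1691 CPM in libraries 6 to 8 of 4T1 C269 and 235 to 606 CPM in 4T1 CTRL, against 314 to 873 CPM in CD4 C269 and 221 to 333 CPM in CD4 CTRL. The 8 neutrophil genes summed to 369 and 373 CPM in libraries 9 and 10, 3041 to 13424 CPM in libraries 6 to 8 and 4061 to 14495 CPM in 4T1 CTRL. All 4T1 CTRL libraries and libraries 6 and 7 thus lay within the epithelial range of CD4 cells, and neutrophil transcripts were abundant outside libraries 9 and 10, so the 4T1 libraries are called the tumour fraction below. Libraries 9 and 10 of 4T1 C269, those highest in epithelial genes, stood apart, also with 6526 and 7414 CPM of 6 goblet cell genes, against 0 to 147 CPM in the other 28 libraries. They also lacked nearly all Xist, the non-coding RNA of the inactive X chromosome (0.449 and 0.193 CPM, against 528 CPM or more elsewhere), so 4T1 results are given with and without them. Which of the 4T1 libraries hold the labelled carcinoma cells cannot be told from these values. Some 4T1 libraries were far more alike than others, by the mean chi-square per gene between their counts. It was 5.19 between libraries 1 and 3, against 24.9 to 82 for other 4T1 CTRL pairs. Between libraries 9 and 10 it was 11.1, against 25.4 to 180 for other 4T1 C269 pairs. Whether such pairs stem from the same animal is not labelled, and the tests count them as separate libraries.

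As background, the small (40S) subunit decodes the messenger RNA and the large (60S) subunit joins amino acids, with the stalk proteins Rplp0, Rplp1 and Rplp2 recruiting translation factors. The genes are scattered over the genome but produced in balance, and their messages carry a terminal oligopyrimidine (TOP) tract, a C followed by a run of C and T at the 5' end, through which mTOR signalling and the RNA-binding protein Larp1 control their translation. T cells raise ribosome production when they are activated, and resting lymphocytes spend a large part of their messenger RNA on this family.

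Promoter sequences show the region around the annotated start of these genes. RefSeq promoters (GRCm38.p6, 250 bases before to 50 after the annotated start) were found for 55 of the 77 genes by symbol. A C at the start followed by C or T to a length of at least 5 bases was present in 13 of 55 members (23.6%), against 813 of 27025 genes with a promoter (3.01%). The annotated start need not be the base at which a transcript begins, so a missing tract says only that these letters are not at this position. The 8 windows of 50 bases below hold 30 bases before the start and 20 from it, with the tract at the start in capitals. They are shown for genes the results turn on: 6 with a tract and, as a contrast, the paralog Rps27l and Rpl26 without one. This choice does not mirror the members, most of which lack the tract at the annotated start. Rps21 also has another annotated start, without a tract, that is not shown.
Rps27: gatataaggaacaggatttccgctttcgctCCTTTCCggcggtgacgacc
Rps10: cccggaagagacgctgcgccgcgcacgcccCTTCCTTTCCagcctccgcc
Rps18: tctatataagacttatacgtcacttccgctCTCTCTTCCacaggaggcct
Rps6: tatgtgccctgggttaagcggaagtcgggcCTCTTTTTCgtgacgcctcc
Rps21: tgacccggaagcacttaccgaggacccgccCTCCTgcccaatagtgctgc
Rplp2: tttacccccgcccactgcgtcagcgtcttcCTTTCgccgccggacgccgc
Rps27l: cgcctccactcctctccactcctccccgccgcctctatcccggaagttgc
Rpl26: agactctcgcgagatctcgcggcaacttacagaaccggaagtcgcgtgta
On GRCm38 the windows are Rps27 at chr3:90213629-90213678 on the minus strand, Rps10 at chr17:27635225-27635274 on the minus strand, Rps18 at chr17:33955646-33955695 on the minus strand and Rps6 at chr4:86857348-86857397 on the minus strand. The others are Rps21 at chr2:180257349-180257398 on the plus strand, Rplp2 at chr7:141447621-141447670 on the plus strand, Rps27l at chr9:66946056-66946105 on the plus strand and Rpl26 at chr11:68901536-68901585 on the plus strand.

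Other letters were searched on both strands over the whole 300 bases. CCGGAA, the core of an ETS factor motif, was in 31 of 55 members (56.4%) and 16.7% of all promoters. AAGATGGC, the core of a YY1 motif, was in 5 of 55 members (9.09%) and 3.19% of all promoters, and TATAAA in 6 (10.9%) and 15.7%. These matches describe letters and not binding. For C269 over CTRL the median log2 fold change was -0.063 over 13 members with the start tract and -0.028 over 42 without it in 4T1, 0.28 and 0.27 in 4T1 without libraries 9 and 10, -0.26 and -0.27 in CD4, and -0.022 and -0.12 in CD8. In CD8 CTRL over CD4 CTRL it was 0.42 with the tract and 0.36 without, in 4T1 CTRL over CD4 CTRL -0.49 and -0.46, and in 4T1 CTRL over CD8 CTRL -0.78 and -0.80. The difference between members with and without it was not tested.

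The members differed widely in level. Per kilobase of the median annotated transcript, with the mean over the 6 group means, Rps29 stood highest at 10518 CPM per kb, followed by Rps21 at 9974, Rplp1 at 9658, Rps27 at 9463 and Rps24 at 6272 CPM per kb. Between 100 and 5000 CPM per kb lay 64 of the 77 genes. The lowest were Rpl6l at 3.55, Rps4l at 6.07 and Rpl29 at 14.4 CPM per kb. In total 8 genes lay above 5000 and 5 below 100 CPM per kb, the highest and lowest named here among them.

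Many of these genes share sequence with near-identical copies, and the tables hold 319 rows named as ribosomal protein pseudogenes. Of the 50-base windows of each member's longest principal transcript, taken whole, fewer than 50% were unique among GENCODE M21 transcripts in 39 of the 77 genes. Rps27 had 1.35% unique windows, Rpl35 4.91%, Rpl5 6.16%, Rps6 15.4%, Rps18 13.3% and Rpl29 33.2%, against 94.8% in Rpl22, 97.04% in Rps3 and 83.5% in Rpl4. Levels of genes with few unique windows are uncertain, because how shared reads were counted is not given in the sources used here. Rpl24, a large subunit protein, had 18.3% unique windows and reached at most 7.904 CPM in any library.

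The 5 rows under the floor were Rpl24, Rpl10l, Rpl39l, Rpl3l and Rpl32l. Rpl10l, a copy of Rpl10 active in the mouse testis, had 0 counts in all 30 libraries. Rpl3l, the striated muscle form of Rpl3, had a highest group mean of 1.46 CPM, Rpl39l, the male germ cell form of Rpl39, 3.16 CPM, the pseudogene Rpl32l 4.63 CPM and Rpl24 1.58 CPM. Just above the floor stood Rpl6l with a highest group mean of 8.24 CPM in CD8 C269, where library 27 alone had 28.4 CPM and the other 4 libraries 4.18, 6.12, 0.988 and 1.49 CPM. Rps4l, the other pseudogene kept, had 11.7, 10.2, 2.204, 10.3 and 16.2 CPM in 4T1 C269 and 7.06, 0, 3.14, 3.51 and 40.5 CPM in 4T1 CTRL, and stayed at or under 8.16 CPM in all 20 T cell libraries.

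Summed over members, the share of counts was on average lowest in 4T1 and highest in CD8 libraries. It was 7.26, 9.49, 7.25, 4.56 and 4.83% in the 5 libraries of 4T1 C269 and 7.69, 6.52, 8.102, 6.67 and 5.54% in 4T1 CTRL. In CD4 C269 it was 10.9, 9.68, 8.59, 7.09 and 7.59%, against 10.8, 11.3, 11.6, 7.79 and 9.88% in CD4 CTRL. In CD8 C269 it was 10.9, 11.6, 14.3, 12.3 and 12.8%, against 13.7, 12.9, 14.2, 11.8 and 13.4% in CD8 CTRL. The means were 6.68 ± 2.03% and 6.904 ± 1.02% in 4T1 C269 and 4T1 CTRL, 8.77 ± 1.56% and 10.3 ± 1.54% in CD4 C269 and CD4 CTRL, and 12.4 ± 1.26% and 13.2 ± 0.924% in CD8 C269 and CD8 CTRL (SD, n = 5 each). All 10 CD8 libraries lay above all 10 4T1 libraries, whereas C269 and CTRL ranges overlapped in every population. In bulk libraries like these, fewer cells that use the family heavily and less of its RNA per cell cannot be told apart.

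**Figure D1:**
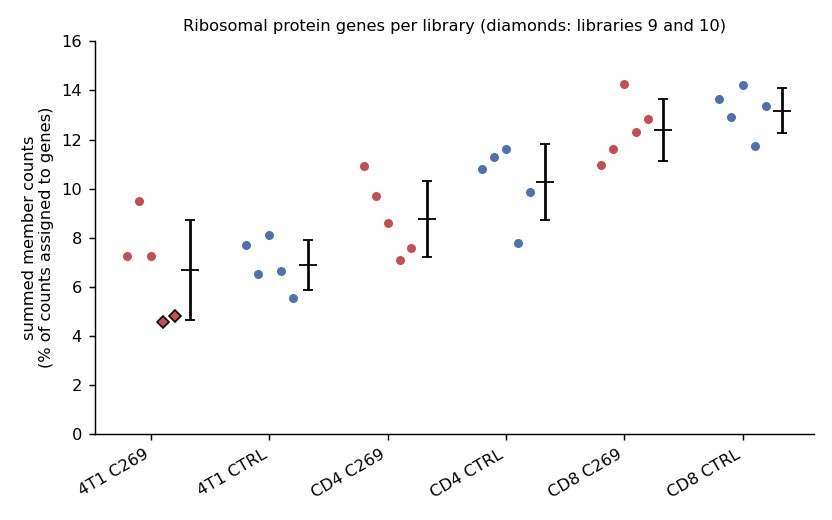
Summed counts of the 77 ribosomal protein genes as a percentage of all counts assigned to genes (y axis) in each library of the 6 groups (x axis); points are libraries, diamonds are libraries 9 and 10, and the bar beside each group is the mean with its SD (n = 5). The 10 CD8 libraries lie between 10.9 and 14.3%, and the lowest 2 points, at 4.56 and 4.83%, are libraries 9 and 10.

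The balance between subunits differed between populations. The ratio of summed large subunit to summed small subunit counts ran from 0.976 to 1.24 over the 30 libraries, with means of 1.11 ± 0.0559 in 4T1 C269, 1.18 ± 0.0421 in 4T1 CTRL, 1.02 ± 0.0309 in CD8 CTRL and 1.09 ± 0.0511 in CD4 CTRL (SD, n = 5 each). The ratio ran from 1.13 to 1.24 in 4T1 CTRL and from 0.993 to 1.07 in CD8 CTRL, with no overlap, and CD4 CTRL (1.05 to 1.17) overlapped both. As a share of the summed member counts, 56 of the 77 genes had a highest group mean under 1.5 times their lowest, and 71 under 2 times. Rplp1, a stalk protein, was among the 3 steadiest over the 6 groups, with an SD of its log2 group shares of 0.0626. It held between 4.71 and 5.23% of the family's counts in every group mean. The least steady were Rpl29, Rps4l and Rpl26, with SDs of 1.77, 1.65 and 1.604.

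The first comparison set C269 against CTRL in the tumour fraction. With all 10 libraries the genes showed no common direction: 38 of 76 members tested had higher and 38 lower values in C269, with a median log2 fold change of -0.0024, against 0.041 over all 12875 genes. By edgeR's quasi-likelihood test with Benjamini-Hochberg adjustment over all genes, 0 members passed 0.05, as did 0 genes in all (0% of genes called), while DESeq2 called 2 members (5.67% of all genes) and a fit in which all 30 libraries set the spread called 3 (4.11% of all genes). At an unadjusted p under 0.05 stood 3 of the 76 members, beside 12.1% of all genes. Those 3 were Rpl26, Rpl29 and Rps2.

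The difference in all 3 genes rested on libraries 9 and 10. Rpl26, a protein near the exit of the peptide tunnel, had 26.4, 29.7, 22.5, 400.1 and 472 CPM in libraries 6 to 10 of C269, against 22.5, 31.5, 25.98, 29.1 and 18.01 CPM in CTRL (log2 fold change 2.90, SE 0.87; adjusted p = 0.355, edgeR). Rpl29, a large subunit protein that mice can live without, had 4.51, 8.81, 1.96, 88.7 and 89.6 CPM in C269, against 6.84, 1.28, 6.72, 4.01 and 3.46 CPM in CTRL (log2 fold change 3.04, SE 1.01; adjusted p = 0.356). Rps2, at the messenger RNA entry of the small subunit, had 172, 199.8, 209.6, 613 and 646 CPM in C269, against 174, 246, 174, 239 and 182 CPM in CTRL (log2 fold change 0.88, SE 0.38; adjusted p = 0.4002). In each gene the last 2 C269 libraries exceeded every other library of the series, and the first 3 lay within or near the range of CTRL. Without libraries 9 and 10 the log2 fold changes were 0.15 for Rpl26, 0.25 for Rpl29 and 0.022 for Rps2 (SE 0.28, 0.79 and 0.18).

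Libraries 9 and 10 differed in the make-up of the family, not only in its sum. As a share of member counts, 17 of 77 genes lay above and 9 below the range of the other 28 libraries in both. The like count over all genes was not taken, so these numbers are not shown to be particular to the family. Rpl29 held 30.6 times and Rpl26 26.1 times their mean share in the other 8 4T1 libraries, Rps2 4.78 times, Rps27l 2.23 times and Rpl34 0.306 times. The other 72 genes stayed within 2-fold. Rpl34 had 1492, 1837, 1254, 389 and 140.4 CPM in 4T1 C269, with the last 2 values in libraries 9 and 10, against 1542, 1067, 1523, 1156 and 1084 CPM in 4T1 CTRL. The pseudogene row Rps18-ps6 was at 0 in libraries 9 and 10 and between 44.7 and 245 CPM in the other 28. The sum of all 319 pseudogene rows was 132 CPM in library 9, 154 CPM in library 10 and 342 CPM or more in the others. The part that shared sequence between copies plays in these values was not tested.

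**Figure D2:**
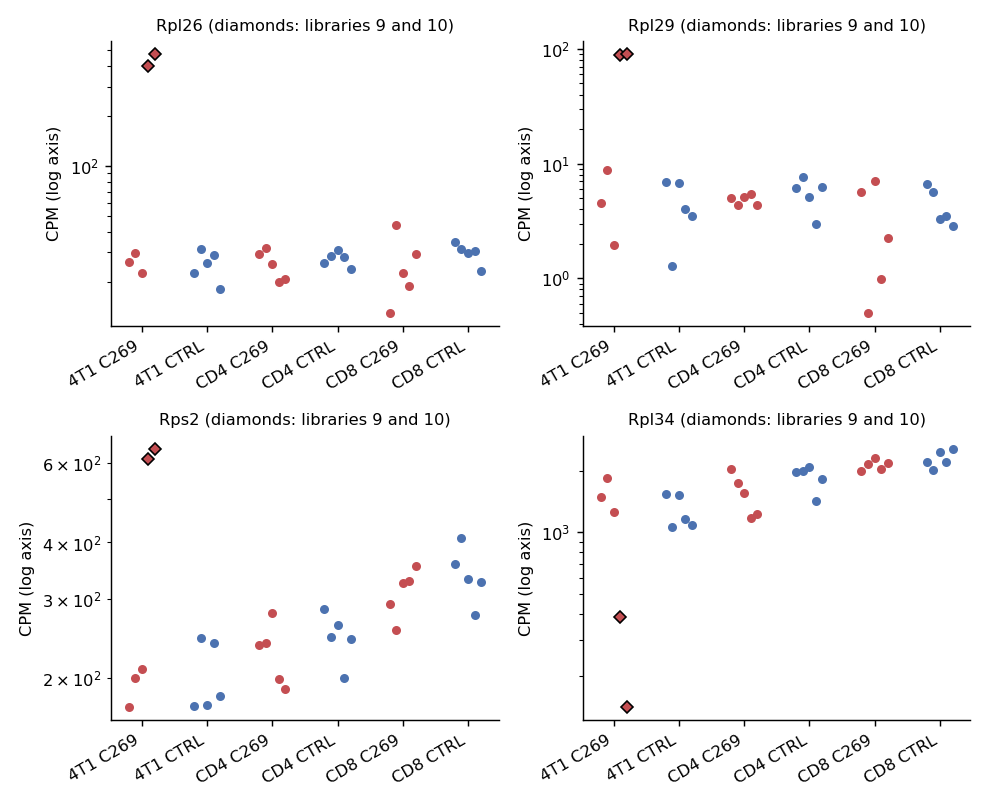
CPM on a log axis (y) of Rpl26, Rpl29, Rps2 and Rpl34 in each library of the 6 groups (x); points are libraries and diamonds are libraries 9 and 10. Rpl26 is at 400.1 and 472 CPM in those 2 libraries and at 43.9 CPM or less elsewhere, while Rpl34 is at 389 and 140.4 CPM there and at 1067 CPM or more elsewhere.

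The members with the smallest p on the lower side in 4T1 C269 were Rpl37a, Rpl30 and Rpl37, all of the large subunit. Rpl37a averaged 1018 ± 466 CPM in C269 and 1407 ± 218 CPM in CTRL (SD, n = 5 each; log2 fold change -0.42, SE 0.37; adjusted p = 0.675, edgeR). Rpl30 averaged 524 ± 129 CPM in C269 and 644 ± 89.2 CPM in CTRL (log2 fold change -0.26). Rpl37 averaged 2586 ± 1135 CPM in C269 and 3507 ± 453 CPM in CTRL (log2 fold change -0.38). In all 3 genes the lowest C269 values were those of libraries 9 and 10, such as 509.6 and 583.6 CPM for Rpl37a. Without those libraries the log2 fold changes were -0.0072 for Rpl37a, -0.024 for Rpl30 and 0.034 for Rpl37. None of these differences passed the test.

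With libraries 9 and 10 left out, the family leaned higher in C269. Of 76 members, 72 had higher values, the median log2 fold change was 0.27 against 0.0012 over all 13750 genes, and large and small subunit genes had medians of 0.26 and 0.28. No member passed the test by edgeR (0% of all genes called) or by DESeq2, and 3 stood at an unadjusted p under 0.05, beside 5.46% of all genes. Those were Rps10, Rpl13a and Rpl13. Rps10, a small subunit protein, had 37.02, 32.8 and 39.9 CPM in libraries 6 to 8 of C269, against 22.9, 17.9, 25.98, 28.6 and 23.9 CPM in CTRL (log2 fold change 0.68, SE 0.26; adjusted p = 0.827, edgeR), groups that did not overlap. Rpl13a, which in human cells also acts outside the ribosome as a silencer of inflammatory messages, had 135, 145 and 128 CPM in C269, against 109, 81.8, 91.6, 122 and 73.8 CPM in CTRL (log2 fold change 0.60, SE 0.23; adjusted p = 0.832). Rpl13 had 1304, 1444 and 1144 CPM in C269, against 1071, 813, 1045, 746 and 706 CPM in CTRL (log2 fold change 0.64, SE 0.27; adjusted p = 0.884). The 3 C269 values of Rpl13a and Rpl13 also lay above all 5 CTRL values. These 3 genes were picked for the smallest p, which favours groups that do not overlap, and the share of such genes overall was not taken.

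The 4 members with lower values were Rps4l, Rpl30, Rpl7a and Rpl37a, at log2 fold changes of -0.30, -0.024, -0.0077 and -0.0072 (SE 1.20, 0.23, 0.22 and 0.27). The size of the lean depended on single libraries. Without C269 library 7, which had the highest member share of the tumour fraction, 54 of 77 members had higher values and the median was 0.077, and without CTRL libraries 1 and 3 together it was 0.56, a setting chosen after seeing the data.

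B cell, erythroid and T cell markers split the libraries of the tumour fraction as the share did. The 6 B cell genes, all detected, summed to 2236, 3338, 3507, 160.1 and 134 CPM in C269 libraries 6 to 10, against 1454, 119.7, 1479, 82.03 and 25.97 CPM in CTRL libraries 1 to 5. The 5 erythroid genes summed to 38125, 11503, 8999, 85.3 and 81.5 CPM in C269, against 25073, 1499, 26840, 182 and 714 CPM in CTRL. T cell markers summed to 357, 387, 545, 142 and 149 CPM in C269, against 283, 69.4, 300, 14.5 and 47.1 CPM in CTRL. The libraries high in all 3 lists (1, 3, 6, 7 and 8) were those with a member share of 7.25% or more, and the remaining 5 had 6.67% or less. Neutrophil and macrophage markers did not follow it: library 2, with a share of 6.52%, had 11182 CPM of neutrophil genes, against 3041 CPM in library 8 with 7.25%, and the 7 macrophage genes were highest in libraries 4 and 2 (4099.6 and 1923 CPM). The part of these cells in the family's values was not tested.

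In CD4+ T cells the family leaned lower in C269. Of 76 members, 70 had lower values in C269, with a median log2 fold change of -0.25 and quartiles of -0.31 and -0.16, against a median of 0.0047 over all 12393 genes. Large and small subunit genes had like medians, -0.25 and -0.26. No single member passed the test by edgeR (0% of all genes called) or by DESeq2. At an unadjusted p under 0.05 stood 8 members, all lower, beside 5.62% of all genes.

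Rpl3, a core protein close to the peptidyl transferase centre, had the smallest p. It had 776, 619.7, 601, 495 and 509 CPM in C269, against 883, 929, 961, 592 and 756 CPM in CTRL (log2 fold change -0.48, SE 0.18; unadjusted p = 0.0206, adjusted p = 0.865, edgeR). Its groups overlapped, with CTRL libraries 14 and 15, the last 2 CTRL values, below the highest C269 value. Rpl35, at the exit of the peptide tunnel, had 484, 529, 424, 339 and 418 CPM in C269, against 597, 611, 686, 513 and 454 CPM in CTRL (log2 fold change -0.40, SE 0.17). Rpl41, which encodes the smallest ribosomal protein, had 967, 701, 829, 518 and 662 CPM in C269, against 1015, 992, 1156, 892 and 829 CPM in CTRL (log2 fold change -0.42, SE 0.18). In both genes the 2 groups overlapped.

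The 6 members with higher values in CD4 C269 were led by Rps27l, Rps4l and Rpl32. Rps27l, a paralog of Rps27 that p53 can induce, had 119, 126, 149, 194 and 150.1 CPM in C269, against 76.1, 127, 128, 158 and 112 CPM in CTRL (log2 fold change 0.28, SE 0.17; adjusted p = 0.902, edgeR). Its partner Rps27, one of the most abundant members, had 3427, 3190, 2752, 2757 and 2334 CPM in C269, against 4124, 4103, 3889, 1702 and 3778 CPM in CTRL (log2 fold change -0.31, SE 0.23). Rps4l had a log2 fold change of 0.93 (SE 0.60) at 8.16 CPM or less, and Rpl32 one of 0.035 (SE 0.16).

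Among CD4 libraries the T cell marker sum followed the family's share only in part. CTRL library 14 had the lowest T cell marker sum (1659 CPM) and the lowest member share of CTRL (7.79%), together with the highest macrophage marker sum of the CD4 libraries (2055 CPM). The other 4 CTRL libraries had 4049, 4308, 4001 and 4189 CPM of T cell markers. The C269 libraries had 4116, 4096, 3056, 3666 and 2630.2 CPM, and the 3 lowest of these (libraries 18, 19 and 20) were also the 3 with the lowest member share. Among these 3, library 19 had the highest marker sum and the lowest share (7.09%). Among CD8 libraries, 26, 27 and 24 had the lowest shares (10.9, 11.6 and 11.8%) at 6523, 6848 and 6557 CPM. Library 23 went the other way, with 14.2% at 6989 CPM. The part of cell purity in the lower values of C269 was not tested. Without library 14, 42 members stood at an unadjusted p under 0.05, beside 8.28% of all genes, and the median log2 fold change was -0.36, with 0 members called. When other single libraries were left out, that number of members lay between 0 (without library 12, 13 or 19, beside 4.16, 3.91 and 4.51% of all genes) and 22 (without library 16, beside 7.57% of all genes), and the median stayed below 0.

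**Figure D3:**
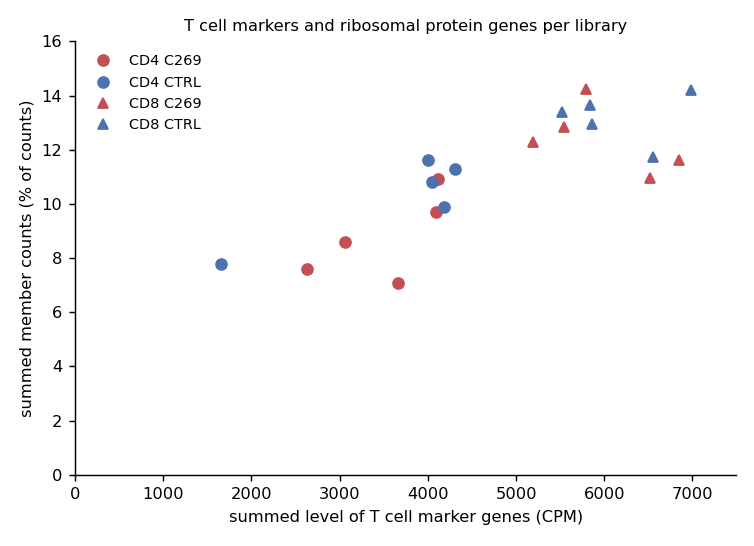
Summed member counts as a percentage of counts assigned to genes (y axis) against the summed CPM of 13 T cell marker genes (x axis) in the 20 T cell libraries; circles are CD4 and triangles CD8 libraries, with colours for C269 and CTRL. CD4 CTRL library 14, at 1659 CPM and 7.79%, lies at the far left, and the CD8 libraries lie at or above 5197 CPM and 10.9%. The marker list holds Cd8a and Cd8b1 but only Cd4 for the other lineage, so the sums are not like for like between CD4 and CD8.

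In CD8+ T cells the lean was also towards lower values, but small. Of 74 members, 51 had lower and 23 higher values in C269, with a median log2 fold change of -0.093 against 0.0097 over all 10943 genes. No member passed the test by edgeR (0.00914% of all genes called, which is 1 gene) or by DESeq2. At an unadjusted p under 0.05 stood 7 members, 5 lower and 2 higher, beside 6.63% of all genes.

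Rpl13 had 1043, 999.7, 1562, 1032 and 1381 CPM in C269, against 1529, 1361, 1860, 1517 and 1906 CPM in CTRL (log2 fold change -0.43, SE 0.16; adjusted p = 0.739, edgeR). Rpl4, whose long loop lines the peptide tunnel, had 1139, 1360.2, 1959, 1011 and 1831 CPM in C269, against 2106, 1926, 1835, 1709 and 2165 CPM in CTRL (log2 fold change -0.41, SE 0.17). Rpl17 averaged 925 ± 143 CPM in C269 and 1160.5 ± 120 CPM in CTRL (SD, n = 5 each; log2 fold change -0.32). C269 and CTRL libraries overlapped in all 3 genes.

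On the higher side, Rps27l had 112, 201, 104, 144 and 90.6 CPM in C269, against 88.3, 72.1, 96.4, 108 and 74.4 CPM in CTRL (log2 fold change 0.57, SE 0.22; adjusted p = 0.739, edgeR). Rpl7a had 925, 1156, 1018, 1172 and 1069 CPM in C269, against 932, 902, 902, 765 and 792 CPM in CTRL (log2 fold change 0.32, SE 0.13). Of its 5 C269 values, 4 exceeded the highest CTRL value. Over the 74 members tested in both T cell populations, 49 had lower values in C269 in both and 3 higher values in both, Rps27l among them. Most members leaned lower in each population by itself, so many coincide whether or not the populations agree gene by gene. The like count over all genes was not taken, so these counts do not show such agreement.

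Members with further roles of their own had fold changes among those of the family. Rplp0, often used as a reference transcript, had log2 fold changes for C269 over CTRL of 0.31 in 4T1, 0.0026 in CD4 and 0.018 in CD8 (SE 0.19, 0.15 and 0.12). Rplp1 and Rplp2, the other stalk proteins, varied: in 4T1 Rplp1 stood at 0.10 and Rplp2 at -0.063, in CD4 Rplp1 at -0.32 and Rplp2 at -0.41, and in CD8 Rplp1 at -0.16 and Rplp2 at 0.036. Rpl5 and Rpl11, which bind 5S RNA and restrain the p53 regulator Mdm2, stood in 4T1 at -0.19 (Rpl5) and 0.053 (Rpl11), in CD4 at -0.32 (Rpl5) and -0.25 (Rpl11), and in CD8 at -0.28 (Rpl5) and -0.20 (Rpl11). Rps6, the substrate of S6 kinases, was at -0.068 in 4T1, -0.30 in CD4 and 0.18 in CD8. Rpl22, which mice need for the development of alpha-beta T cells, was at -0.15 in 4T1, -0.13 in CD4 and -0.18 in CD8. Rps19, the gene most often mutated in human Diamond-Blackfan anaemia, was at 0.017 in 4T1, -0.29 in CD4 and -0.31 in CD8. Rpl10, which completes the active site of the large subunit, was at -0.24 in 4T1, -0.40 in CD4 and 0.16 in CD8. Rpl39, in the peptide tunnel, was at 0.067 in 4T1, -0.075 in CD4 and 0.17 in CD8. The 4T1 values above include libraries 9 and 10. Without those libraries the sign turned in Rpl10 (0.13), Rpl5 (0.16), Rpl22 (0.17), Rplp2 (0.12) and Rps6 (0.28). It stayed positive in Rplp0 (0.29), Rplp1 (0.29), Rpl11 (0.40), Rps19 (0.48) and Rpl39 (0.46). None of these 10 genes passed the test in any C269 comparison.

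**Figure D4:**
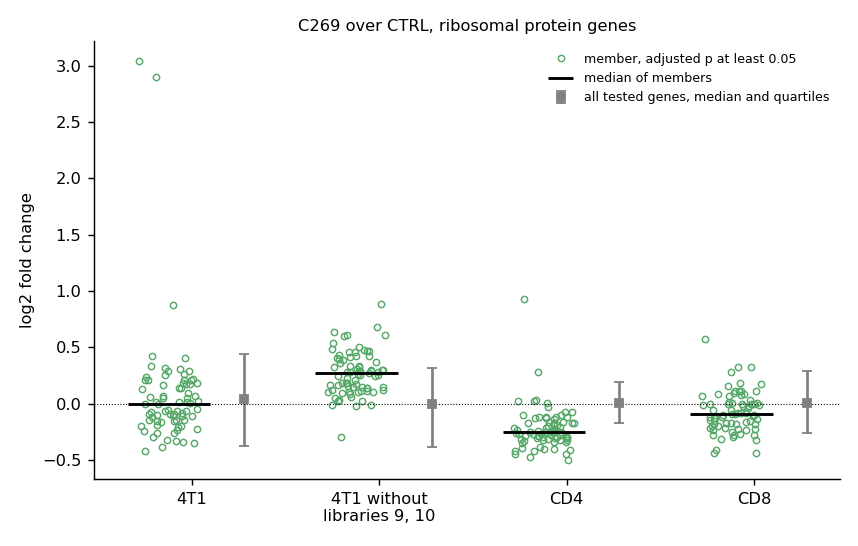
Log2 fold change of C269 over CTRL (y axis) for each ribosomal protein gene tested in 4 comparisons (x axis); circles are genes, the black line is their median, and the grey square with bars is the median of all tested genes with its quartiles. The member medians are -0.0024 in 4T1, 0.27 in 4T1 without libraries 9 and 10, -0.25 in CD4 and -0.093 in CD8, and no ribosomal protein gene passed edgeR's test, while DESeq2 called 2 in 4T1.

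Whether the C269 effect differed between populations was tested as an interaction in edgeR fits of all libraries, over 14731 genes. Between CD8 and CD4 cells 0 of 77 members passed (0% of all genes), 1 stood at an unadjusted p under 0.05 (3.84% of all genes), and the median difference was 0.15 on the log2 scale. Between 4T1 and CD4 cells 0 members passed (0.00679% of all genes), 6 stood under an unadjusted 0.05 (9.41% of all genes) and the median difference was 0.26. Between 4T1 and CD8 cells 0 members passed (0.00679% of all genes), 5 stood under an unadjusted 0.05 (16.3% of all genes) and the median difference was 0.18. Without libraries 9 and 10, 0 members passed in either 4T1 difference (0% and 0.0063% of 15880 genes called). The count at an unadjusted p under 0.05 was then 31 of 77 members against CD4 (4.2% of all genes) and 20 against CD8 (11.9%), with median differences of 0.56 and 0.37. The higher lean in 4T1 and the lower lean in T cells are therefore not shown to differ for any single gene. DESeq2 was not run on these differences.

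Between the populations of control tumours, many members passed the test. CD8 cells held more of the family than CD4 cells: 31 of 75 members passed the test as higher in CD8 CTRL and 0 as lower, against 10.1% of all genes called higher and 13.2% called lower (edgeR). The median log2 fold change was 0.39 over members and 0.021 over all 12109 genes. Among the genes called were 18 of 30 small subunit and 13 of 45 large subunit members, with medians of 0.46 and 0.35. DESeq2 called 36 (20.3% of all genes in either direction). When all 30 libraries set the spread, 5 members were called in place of 31 (7.01% of all genes), and without CD8 CTRL library 23, 20 (20.4%).

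The 18 small subunit genes called included Rps2, Rps3, Rps7, Rps10, Rps12, Rps13, Rps14, Rps15, Rps15a, Rps18, Rps20, Rps21, Rps25, Rps28 and Rps29. The 13 of the large subunit were Rpl8, Rpl9, Rpl13, Rpl18, Rpl23a, Rpl27, Rpl27a, Rpl30, Rpl32, Rpl38, Rpl39, Rplp0 and Rplp1. Rpl23a, a docking site for factors at the tunnel exit, rose most. It had 4674, 4606, 5457, 4727 and 4798 CPM in CD8 CTRL, against 2516, 2999, 2668, 2732 and 2969.7 CPM in CD4 CTRL (log2 fold change 0.89, SE 0.11; adjusted p = 2.73e-05, edgeR), with no overlap. Rplp0 had 1311, 1437, 1532, 1309.6 and 1212 CPM in CD8 CTRL, against 807, 925, 856, 682 and 902 CPM in CD4 CTRL (log2 fold change 0.78, SE 0.13; adjusted p = 3.72e-04). Rps18, a protein of the small subunit head, had 1008, 1113, 1137, 919.5 and 935 CPM in CD8 CTRL, against 639, 673, 664, 493 and 681 CPM in CD4 CTRL (log2 fold change 0.78, SE 0.14; adjusted p = 6.06e-04). Rps10 had 62.2, 63.4, 60.8, 60.02 and 84.05 CPM in CD8 CTRL, against 33.6, 46.02, 44.03, 39.3 and 47.4 CPM in CD4 CTRL (log2 fold change 0.73, SE 0.16; adjusted p = 0.003899). In all 4 genes every CD8 CTRL library lay above every CD4 CTRL library. Picking genes for large folds past the test favours such a separation, and its share over all genes was not taken. Rps27l ran the other way without passing the test, at 88.3, 72.1, 96.4, 108 and 74.4 CPM in CD8 CTRL and 76.1, 127, 128, 158 and 112 CPM in CD4 CTRL (log2 fold change -0.36, adjusted p = 0.137, edgeR).

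Markers of T cells and of other cells differed between these groups as well. T cell markers summed to 6155 ± 599 CPM in CD8 CTRL and 3641 ± 1115 CPM in CD4 CTRL, and fibroblast markers to 667 ± 228 CPM in CD8 CTRL and 2286 ± 2199 CPM in CD4 CTRL (SD, n = 5 each). The T cell list holds both Cd8a and Cd8b1 but only Cd4 for the other lineage. Its sum can therefore differ between CD8 and CD4 cells at equal purity. Epithelial markers summed to 37.1 to 107 CPM in CD8 CTRL and 221 to 333 CPM in CD4 CTRL. Without CD4 CTRL library 14 the count called was 31, of which 30 were higher, and the median log2 fold change was 0.27. The share of all genes called was not taken in that setting. The part of purity in the remaining difference was not tested.

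In control tumours the tumour fraction had a lower mean share of the family than either T cell population. Its libraries (5.54 to 8.1%) overlapped those of CD4 CTRL (7.79 to 11.6%). Against CD8 CTRL, 59 of 76 members fell in 4T1 CTRL (15% of all genes called lower) and 1, Rps27l, rose (20.1% called higher), with a median log2 fold change of -0.80 against -0.0092 over all genes. Against CD4 CTRL, 74 of 76 members had lower values with a median of -0.46, and 2 passed the test as lower and 0 as higher (3.43% and 4.95% of all genes). The 2 comparisons share the 4T1 CTRL libraries and so are not independent. In 66 of the 77 genes the mean CPM of CTRL groups was highest in CD8, next in CD4 and lowest in 4T1, and the 11 exceptions were Rpl10, Rpl15, Rpl21, Rpl23, Rpl29, Rpl35, Rpl41, Rpl6l, Rps27a, Rps27l and Rps4l. The 16 tested members not called between 4T1 CTRL and CD8 CTRL were these exceptions other than Rpl6l and Rps27l, plus Rpl26, Rpl28, Rpl31, Rpl35a, Rpl4, Rps23 and Rps6.

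Rps27 fell most in 4T1 CTRL against CD8 CTRL. It had 2204, 1323, 2422, 1301 and 1104 CPM in 4T1 CTRL, against 5647, 5648, 5220.2, 3909 and 4614 CPM in CD8 CTRL (log2 fold change -1.53, SE 0.26; adjusted p = 7.78e-04, edgeR). Rps10 had 22.9, 17.9, 25.98, 28.6 and 23.9 CPM in 4T1 CTRL, far under the CD8 CTRL values above (log2 fold change -1.43, SE 0.20; adjusted p = 2.39e-04), and Rps18 427, 431, 455, 389 and 356 CPM (log2 fold change -1.28, SE 0.15; adjusted p = 8.68e-05). Rps16 had 571, 494, 714, 584 and 471 CPM in 4T1 CTRL, against 1567, 1737, 1415, 1052 and 1266 CPM in CD8 CTRL (log2 fold change -1.28, SE 0.20; adjusted p = 3.81e-04). None of these 4 genes overlapped between the 2 groups, and all 4 belong to the small subunit. They were picked for the largest folds past the test, which favours such a separation, and its share over all genes was not taken. Rps27l, the paralog of Rps27, had 99.4, 139, 105, 173 and 156 CPM in 4T1 CTRL, against 88.3, 72.1, 96.4, 108 and 74.4 CPM in CD8 CTRL (log2 fold change 0.63, SE 0.18; adjusted p = 0.0154). Its groups overlapped, and it no longer passed without a filter on low counts.

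Against CD4 CTRL the 2 members called lower were Rps14 and Rps10. Rps14, whose loss underlies the anaemia of the human 5q deletion, had 1682, 1426, 1771, 1739.6 and 1163 CPM in 4T1 CTRL, against 2846, 3085, 2933, 2115 and 2739 CPM in CD4 CTRL (log2 fold change -0.74, SE 0.18; adjusted p = 0.0283, edgeR). Rps10 reached a log2 fold change of -0.73 (SE 0.21, adjusted p = 0.0475). Neither gene overlapped between the groups, a separation that picking genes past the test favours. The count of 2 changed with the libraries: it was 15 without CD4 CTRL library 14, 6 without 4T1 CTRL library 3, 1 without 4T1 CTRL library 1 or 5, and 0 without 4T1 CTRL library 2 or 4 or CD4 CTRL library 11, 12, 13 or 15. It was 47 without both 4T1 CTRL libraries 1 and 3, the 2 with high erythroid and B cell sums, a setting chosen after seeing the data. The share of all genes called was not taken in these settings, so the counts are not shown to be particular to the family.

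**Figure D5:**
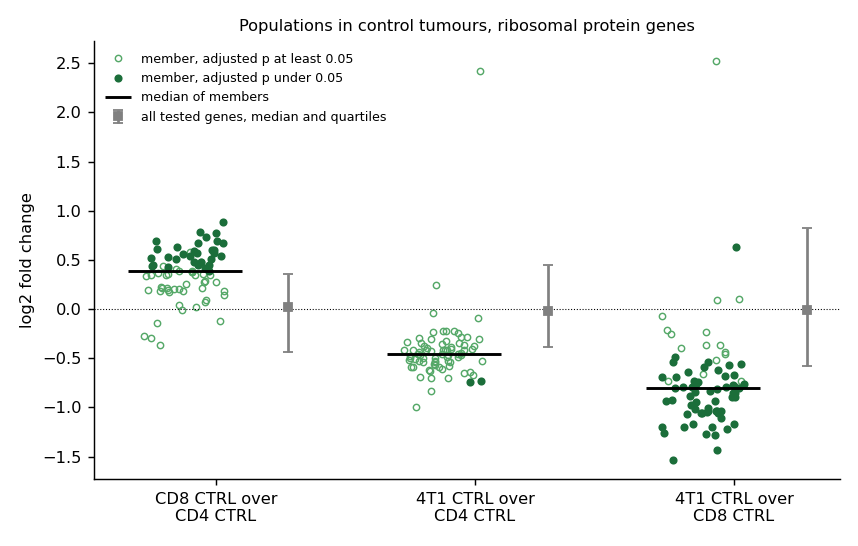
Log2 fold change (y axis) of each ribosomal protein gene tested in 3 comparisons of control groups (x axis); filled circles passed an adjusted p of 0.05 (edgeR), open circles did not, the black line is the member median and the grey square with bars the median and quartiles of all tested genes. The medians are 0.39 for CD8 over CD4, -0.46 for 4T1 over CD4 and -0.80 for 4T1 over CD8, and the highest point in the 2 comparisons of 4T1 is the pseudogene Rps4l, which did not pass.

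Companion gene lists place these values in the ribosome pathway. They hold ribosomal proteins with other names, nucleolar assembly factors, other TOP messages such as translation factors, hosts of small nucleolar RNAs, regulators of mTOR, mitochondrial ribosomal proteins and proliferation genes. By edgeR 0 of their members passed the test in any C269 comparison, and those at an unadjusted p under 0.05 were 13 of 156 in 4T1 (8.33%, against 12.1% of all genes), 6 of 158 in 4T1 without libraries 9 and 10 (3.8%, against 5.46%), 8 of 156 in CD4 (5.13%, against 5.62%) and 13 of 155 in CD8 (8.39%, against 6.63%). DESeq2 called 2 of 159 genes in 4T1 (5.67% of all genes) and 0 in the other 3 comparisons. In the tumour fraction with all libraries the lists gave the following log2 fold changes of C269 over CTRL. Among 8 ribosomal protein genes with other names, 4 had higher and 4 lower values, with a median log2 fold change of 0.022. Rpl36al, a copy of Rpl36a, had 0.81 (SE 0.22). The 27 nucleolar ribosome assembly genes divided into 16 higher and 11 lower around a median of 0.0086. Nob1, a nuclease that matures ribosomal RNA, had -0.62 (SE 0.32) and Fbl, the methyltransferase of ribosomal RNA, -0.61 (SE 0.33). For other TOP messages (15 tested) the median was -0.071, with 5 higher and 10 lower. Eif4b, an initiation factor, had 0.30 (SE 0.19) and Eef1d, an elongation factor subunit, 0.28 (SE 0.21). Among 7 small nucleolar RNA host genes, 1 had higher and 6 lower values, with a median log2 fold change of -0.29. Snhg6 had -0.58 (SE 0.23) and Snhg12 -0.37 (SE 0.32). The 15 regulators of mTOR and of TOP messages divided into 4 higher and 11 lower around a median of -0.12. Eif4ebp1, the mTOR-regulated brake on cap-dependent translation, had -0.87 (SE 0.35) and Myc, a driver of ribosome production, -1.05 (SE 0.45). For mitochondrial ribosomal protein genes (74 tested) the median was 0.29, with 61 higher and 13 lower. Mrpl34 had 1.31 (SE 0.43) and Mrpl47 1.11 (SE 0.46). Among 10 proliferation genes, 6 had higher and 4 lower values, with a median log2 fold change of 0.091. Cdk1 had -0.41 (SE 0.25) and Ccnb1 0.67 (SE 0.41).

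Without libraries 9 and 10, all 7 lists had medians above 0. Among 8 ribosomal protein genes with other names, 6 had higher and 2 lower values, with a median log2 fold change of 0.14. Rpl36al, a copy of Rpl36a, had 0.86 (SE 0.27). The 27 nucleolar ribosome assembly genes divided into 17 higher and 10 lower around a median of 0.088. Dkc1, the pseudouridine synthase, had 0.53 (SE 0.25) and Nhp2, a box H/ACA particle protein, 0.30 (SE 0.21). For other TOP messages (15 tested) the median was 0.19, with 14 higher and 1 lower. Eif4b, an initiation factor, had 0.34 (SE 0.22) and Eif3f, an initiation factor subunit, 0.34 (SE 0.23). Among 7 small nucleolar RNA host genes, 4 had higher and 3 lower values, with a median log2 fold change of 0.064. Snhg6 had -0.44 (SE 0.26) and Snhg1 0.23 (SE 0.42). The 15 regulators of mTOR and of TOP messages divided into 8 higher and 7 lower around a median of 0.039. Myc, a driver of ribosome production, had -0.58 (SE 0.25) and Eif4ebp1, the mTOR-regulated brake on cap-dependent translation, -0.57 (SE 0.36). For mitochondrial ribosomal protein genes (76 tested) the median was 0.11, with 48 higher and 28 lower. Mrpl33 had 0.50 (SE 0.18) and Mrpl2 -0.53 (SE 0.21). Among 10 proliferation genes, 5 had higher and 5 lower values, with a median log2 fold change of 0.023. Cdk1 had -0.66 (SE 0.23) and Top2a -0.35 (SE 0.23).

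In CD4 cells all 7 lists had medians below 0. Among 8 ribosomal protein genes with other names, 2 had higher and 6 lower values, with a median log2 fold change of -0.17. Rpsa, a small subunit protein, had -0.34 (SE 0.16) and Fau, the precursor of Rps30, -0.26 (SE 0.16). The 27 nucleolar ribosome assembly genes divided into 4 higher and 23 lower around a median of -0.14. Fbl, the methyltransferase of ribosomal RNA, had -0.68 (SE 0.20) and Nop2, another ribosomal RNA methyltransferase, -0.59 (SE 0.23). For other TOP messages (15 tested) the median was -0.13, with 3 higher and 12 lower. Eef1g, an elongation factor subunit, had -0.41 (SE 0.13) and Tpt1 -0.38 (SE 0.18). Among 7 small nucleolar RNA host genes, 0 had higher and 7 lower values, with a median log2 fold change of -0.38. Snhg12 had -0.46 (SE 0.20) and Snhg8 -0.41 (SE 0.19). The 15 regulators of mTOR and of TOP messages divided into 5 higher and 10 lower around a median of -0.10. Myc, a driver of ribosome production, had -0.25 (SE 0.18) and Eif4ebp2, a relative of Eif4ebp1, -0.25 (SE 0.18). For mitochondrial ribosomal protein genes (74 tested) the median was -0.085, with 22 higher and 52 lower. Mrpl17 had -0.39 (SE 0.18) and Mrpl55 -0.46 (SE 0.26). Among 10 proliferation genes, 2 had higher and 8 lower values, with a median log2 fold change of -0.15. Mcm5 had -0.48 (SE 0.23) and Ccnb1 -0.31 (SE 0.22).

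In CD8 cells 3 lists had medians below 0 and 4 above. Among 8 ribosomal protein genes with other names, 4 had higher and 4 lower values, with a median log2 fold change of 0.0047. Rpl22l1, the paralog of Rpl22, had 0.20 (SE 0.18) and Rack1, a scaffold on the small subunit, -0.12 (SE 0.14). The 26 nucleolar ribosome assembly genes divided into 8 higher and 18 lower around a median of -0.28. Nop56, a box C/D particle protein, had -0.64 (SE 0.24) and Ubtf, a polymerase I factor, 0.43 (SE 0.17). For other TOP messages (15 tested) the median was -0.13, with 7 higher and 8 lower. Eef2, the translocation factor, had -0.26 (SE 0.14) and Eif3f, an initiation factor subunit, 0.21 (SE 0.13). Among 7 small nucleolar RNA host genes, 1 had higher and 6 lower values, with a median log2 fold change of -0.048. Snhg3 had 0.56 (SE 0.23) and Snhg1 -0.29 (SE 0.22). The 15 regulators of mTOR and of TOP messages divided into 9 higher and 6 lower around a median of 0.10. Rheb, the activator of mTOR, had 0.63 (SE 0.24) and Rps6kb2, an S6 kinase, 0.92 (SE 0.36). For mitochondrial ribosomal protein genes (74 tested) the median was 0.16, with 44 higher and 30 lower. Mrps5 had -0.64 (SE 0.21) and Mrps35 0.77 (SE 0.34). Among 10 proliferation genes, 8 had higher and 2 lower values, with a median log2 fold change of 0.20. Pcna had 0.47 (SE 0.20) and Mcm3 -0.25 (SE 0.19).

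Between control populations, genes of 4 lists passed the test in the direction of the family alone, and those of mitochondrial ribosomes in both directions. In CD8 CTRL against CD4 CTRL, 4 of 8 ribosomal proteins with other names, 4 of 27 nucleolar assembly genes, 6 of 15 other TOP messages and 3 of 7 host genes rose by edgeR's test, beside 10.1% of all genes, and none of them fell. Of mitochondrial ribosomal protein genes 3 of 74 rose and 4 fell, around a median of 0.0071. In 4T1 CTRL against CD8 CTRL, 5 of 8 ribosomal proteins with other names, 9 of 27 nucleolar assembly genes, 10 of 15 other TOP messages and 6 of 7 host genes fell, beside 15% of all genes, and none rose. Of mitochondrial ribosomal protein genes 2 fell and 7 rose. Regulators of mTOR and of TOP messages were split, with 2 higher and 3 lower in CD8 CTRL against CD4 CTRL and 3 higher and 4 lower in 4T1 CTRL against CD8 CTRL. Of 10 proliferation genes, 0 rose and 4 fell in CD8 CTRL against CD4 CTRL, and 1 rose and 3 fell in 4T1 CTRL against CD8 CTRL. Against CD4 CTRL, 4T1 CTRL had 1 of these list genes called, lower, among the ribosomal proteins with other names, at a median of -0.23 for that list.

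In the authors' deposited tables of DESeq2 results, 2 of 77 members had an adjusted p under 0.05 in 4T1 cells (4.5% of genes with an adjusted p), and 0 in CD4 and 0 in CD8 cells (0.0876% and 0.0858%). In the authors' deposited table the 2 were Rpl26 and Rpl29, with log2 fold changes of -2.62 and -2.69 for CTRL over C269, the direction that table uses (adjusted p = 0.0142 and 0.0273, DESeq2). Both genes are the ones high in libraries 9 and 10 above.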

How the data were processed

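RNA was extracted from sorted 4T1 cells and bead-isolated CD4+ and CD8+ T cells with a Lexogen kit, per the labels' protocols. The submitters' processing notes name FastQC, featureCounts, DESeq2 and the build mm9, while all 82 gene starts checked equal those of GENCODE M21 on GRCm38; no source used here gives the aligner or any version. The 3 deposited tables hold raw counts per gene in 30 libraries, left unnormalized by the authors, and the sum of each group. They also hold the authors' deposited DESeq2 results: the mean normalized signal, the log2 fold change (CTRL over C269), its standard error and Wald score, and the p-value with its adjusted value.

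The 7 ribosomal RNA rows (0.579 to 7.95% of counts) were left out. Their share averaged 1.57 and 4.01% in 4T1 C269 and CTRL, 2.82 and 2.06% in CD4, and 5.76 and 4.18% in CD8. In libraries 7, 3 and 1, highest in member share in 4T1, it was 0.579, 0.961 and 2.02%. It was 5.5, 5.74 and 5.85% in libraries 4, 2 and 5, but 2.29 and 0.613% in libraries 9 and 10, lowest in member share. In CD4 libraries 19, 20 and 14, lowest in member share, it was 4.39, 3.52 and 3.61%. Its relation to the member share was not tested. CPM, member sums and all tests were computed here, with edgeR 4.0.16 (filterByExpr, TMM, quasi-likelihood test, R 4.3.3) on the libraries of each comparison, or on all 30 for differences between effects. Adjusted p-values are Benjamini-Hochberg values over all genes tested, with a threshold of 0.05, and SE is the log2 fold change divided by the root of F. DESeq2 1.42.0 was an alternative, with other scalings, filters, thinned counts and single libraries left out, and the fits were tested on simulated data. Members of the family and the gene lists were chosen with earlier results of these data known.

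Named genes were the 3 with the smallest p in each direction of each C269 comparison, the 4 with the largest fold change in each direction among those passing between control groups, the 5 highest and 3 lowest per kb, the 3 most and 3 least steady in share, 10 members with known roles, the related rows Rpl3l, Rpl10l, Rpl39l, Rps27l and Rps4l, rows under the floor, and the 2 of each companion list with the smallest p. Some genes the rule names are not reported here. Sequences are RefSeq's. Total counts of 2005579 to 5176494 limit the precision of genes of few counts.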

Additional observations from a re-analysis of the deposited data

Results flagged for a closer look

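In each value below, 1 library of a group of 5 lay far from the other 4, with its gap to the nearest of them above Dixon's 95% critical value of 0.71 of the group's range. Chance alone gives about 1 in 20 groups such a library, and 10 of 222 groups tested had one. Library 5 of 4T1 CTRL was low in Rpl37 (2704 CPM, against 3609 to 3759.8 CPM in the other 4) and in Rpl7a (467 CPM, against 597 to 624 CPM in the other 4), and high in the pseudogene Rps4l (40.5 CPM, against 0 to 7.06 CPM in the other 4). Library 14 of CD4 CTRL, the one with the lowest T cell marker sum, was low in Rps27 (1702 CPM, against 3778 to 4124 CPM in the other 4) and Rps18 (493 CPM, against 639 to 681 CPM in the other 4). The pseudogene Rpl6l was high in library 19 of CD4 C269 (9.23 CPM, against 0.583 to 1.78 CPM in the other 4) and in library 27 of CD8 C269 (28.4 CPM, against 0.988 to 6.12 CPM in the other 4). In CD8 CTRL, library 23 was high in Rpl23a (5457 CPM, against 4606 to 4798 CPM in the other 4), library 25 was high in Rps10 (84.05 CPM, against 60.02 to 63.4 CPM in the other 4) and library 24 was low in the summed pseudogene rows (512 CPM, against 601 to 631 CPM in the other 4).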

How the results depend on the processing

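No paired analysis was possible because the count columns carry no replicate letter that could be matched to the labels. Leaving out single libraries kept the count of members called at 0 in every C269 comparison, and moved the median log2 fold change over -0.22 to 0.12 in 4T1, 0.077 to 0.42 in 4T1 without libraries 9 and 10, -0.36 to -0.17 in CD4 and -0.15 to -0.047 in CD8. Between control groups it gave 20 to 35 members called for CD8 over CD4, 0 to 15 for 4T1 over CD4 and 55 to 65 for 4T1 over CD8. Shares of all genes called were taken for only some settings here, and counts without one are not set against all genes. With DESeq2, 2 members were called in 4T1 (5.67% of all genes) and 11 in 4T1 CTRL over CD4 CTRL (13.1% of all genes). With the spread of all 30 libraries, 3 were called in 4T1 (4.11% of all genes), 5 in CD8 CTRL over CD4 CTRL (7.01%) and 6 in 4T1 CTRL over CD4 CTRL. That last count was 1 with RLE size factors, with scaling without the members and with ribosomal RNA in library sizes, and 47 without 4T1 CTRL libraries 1 and 3, a setting chosen after seeing the data. Without those 2 libraries the medians were 0.56 for C269 in 4T1 without libraries 9 and 10 and -1.06 for 4T1 CTRL over CD8 CTRL. The C269 effect in 4T1 minus that in CD4 had a median of 0.56 without libraries 9 and 10, and that in 4T1 minus CD8 had 1 member called with no filter. Among named genes in 4T1 without libraries 9 and 10, the near-zero values of Rpl30 (0.15 without libraries 1 and 3) and Rpl7a (0.017 with no filter, 0.012 with the spread of 28 libraries, 0.13 without libraries 1 and 3) changed sign. Over single libraries left out, Rps4l there ran from -0.71 to 1.28, Rpl30 from -0.17 to 0.12 and Rpl7a from -0.15 to 0.12, and Rpl32 in CD4 from -0.066 to 0.093. The cause was not tested. Of the alternative values of the medians, 156 moved by less than the pooled SD of the log2 member share (0.257). Genes of few counts such as Rpl6l, Rps4l and Rpl29 are limited by depth.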
